A study of Macaca mulatta with 24 samples.

Results

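The genes described here are those by which the absorptive cells of the small intestine take up dietary fat and sterols and ship them out on apolipoproteins. The set was fixed as 10 symbols (FABP1, FABP2, APOA1, APOA4, APOB, APOC3, MTTP, DGAT1, CD36 and NPC1L1), and its members were all array probes carrying 1 of those symbols. A probe was found for 8 of the 10 genes, out of 16298 genes with a symbol on the array, and the 8 genes had 12 probes. No probe carried the symbols APOA1 or APOA4, so neither gene was measured under its own name. Expression was measured in the ileum of 24 young adult male rhesus macaques, 1 animal per array, on 1-colour Agilent arrays. Of these, 4 animals were unirradiated controls, labelled as day 4, and the others had a single whole-body dose of cobalt gamma rays (total-body irradiation, TBI) of 6.7 Gy or 7.4 Gy. There were 4 animals per dose on day 4 and on day 7, and 2 animals per dose on day 12. A protocol label shared by all samples names day 21 where the sample titles give day 12. The titles were followed, and the conflict was not resolved. The same 4 controls served in all 6 comparisons with unirradiated tissue, and no later unirradiated group was among the arrays. The samples were segments of whole gut wall, so that fewer cells of a type and less RNA per cell cannot be told apart.

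Fat absorption starts at the brush border, where sterols enter through transporters and fatty acids reach the cytosol and are bound by fatty acid binding proteins. In the endoplasmic reticulum the fatty acids are joined again into triglyceride and loaded onto apolipoprotein B, and the particle, called a chylomicron, then takes up further apolipoproteins and leaves the cell for the lymph. The jejunum does most of this work, and the ileum is better known for the uptake of bile acids.

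Signals are given as log2 values relative to the 75th percentile of the probes on the same array, so that 0 is the signal of a fairly bright probe and each unit is a factor of 2.0. Each gene is described by its brightest probe. Only values of the same probe are compared, because probes differ in how strongly they bind. A gene is called altered when limma gave an adjusted p under 0.05 over all 36110 probes tested and the change was at least 2.0-fold. The 75th percentile ran from 837 to 1330 intensity units, and 72.7% to 88.1% of probes lay well above background. FABP6, the ileal bile acid binding protein, gave log2 signals of 7.00 to 9.19, and it, all 17 enterocyte markers tested and all 5 pan-epithelial markers were well above background on all 24 arrays. Groups held 2 to 4 animals, and that number of arrays limits how precise each value below can be.

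FABP1, the liver-type fatty acid binding protein that carries long-chain fatty acids through the cytosol, was the 1 gene of the 8 that was called altered. Its signal fell after the higher dose on day 4. In the controls its log2 signals were 6.84, 6.55, 6.39 and 5.93, with a mean of 6.43 ± 0.38 (SD, n = 4). On day 4 after 7.4 Gy they were 4.67, 5.42, 5.10 and 5.65, with a mean of 5.21 ± 0.42 (SD, n = 4). On day 4 after 6.7 Gy they were 5.31, 5.38, 5.59 and 5.77, with a mean of 5.51 ± 0.21 (SD, n = 4). All 8 irradiated animals of day 4 lay below the lowest control. After 7.4 Gy the difference was -1.22 on the log2 scale (SE 0.28, 95% interval -1.80 to -0.63), a 2.33-fold lower signal, with an adjusted p of 0.0156 in limma. After 6.7 Gy the difference was -0.92 (SE 0.28, 95% interval -1.50 to -0.33), a 1.89-fold lower signal, and it did not pass the test (adjusted p = 0.0768 in limma). The doses did not differ detectably on day 4, with 7.4 Gy minus 6.7 Gy at -0.30 (95% interval -0.89 to 0.29, adjusted p = 0.890 in limma). Of all 14277 genes tested, 2.7% were altered on day 4 after 7.4 Gy and 0.827% were lower there, against 1 of the 8 members. On day 4 after 6.7 Gy, 1.16% of all genes and 0 members were altered, with 1 member at an unadjusted p under 0.05.

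**Figure D1:**
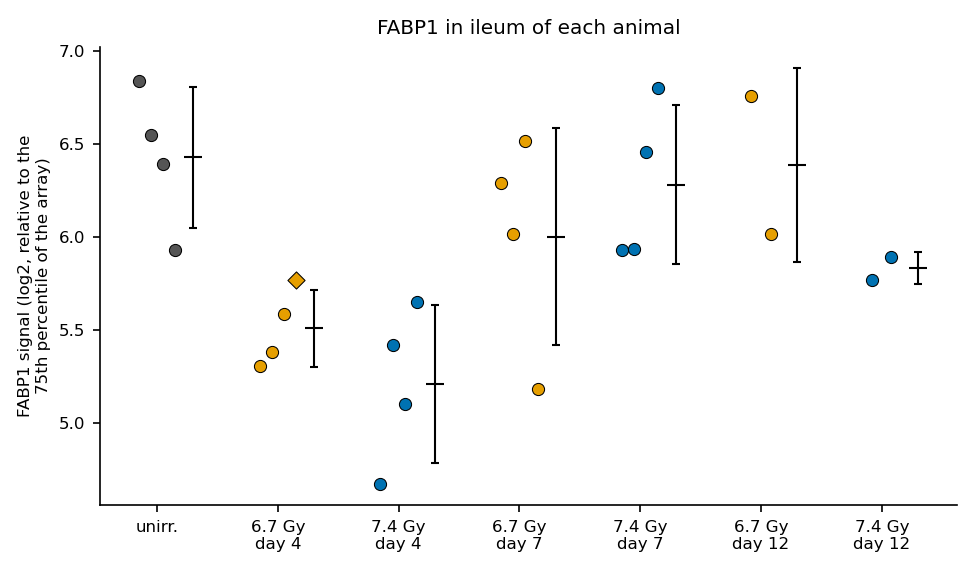
Log2 signal of FABP1 relative to the array's 75th percentile (vertical axis) in each of the 7 groups (horizontal axis), with 1 point per animal and bars for the mean ± SD. All 8 irradiated animals of day 4 lie below the lowest control at 5.93, while the groups of days 7 and 12 lie between 5.18 and 6.81.

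The control arrays all stood in the same position on their slides, so that position and treatment cannot be fully told apart. With array position as a covariate the difference after 7.4 Gy was -1.55 (SE 0.46, adjusted p = 0.118 in limma), and it was -1.08 without control replicate 1 (adjusted p = 0.0580) and -1.04 without 7.4 Gy day 4 replicate 1 (adjusted p = 0.0669). Within the slides that held both a control and day 4 animals, the differences were -1.25 and -0.78 after 6.7 Gy and -1.72 and -0.51 after 7.4 Gy. These pairs do not separate treatment from position, since the control had the same position in each.

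FABP1 rose from day 4 to day 7 after 7.4 Gy. The day 7 animals had log2 signals of 5.93, 5.93, 6.46 and 6.81, with a mean of 6.28 ± 0.43 (SD, n = 4), and none overlapped the animals of day 4. The rise was 1.07 on the log2 scale (SE 0.28, 95% interval 0.49 to 1.66, adjusted p = 0.0384 in limma). This call was close to the threshold. It was lost with slide as a fixed block (0.81, adjusted p = 0.125 in limma) and in 5 of 8 fits that left out 1 animal. Those were the fits without 7.4 Gy day 4 replicate 1, 2 or 3 and without 7.4 Gy day 7 replicate 3 or 4. Over them the rise ran from 0.89 to 1.14. Between the same groups VIL1, the actin bundler of microvilli, rose by 1.0 (adjusted p = 0.00866, called in 5 of 8 such fits and lost without 7.4 Gy day 4 replicate 1 or 7.4 Gy day 7 replicate 1 or 3). KDR, an endothelial receptor, fell by 1.21 (adjusted p = 0.0103 in limma), called in 7 of 8 such fits and below 2.0-fold without 7.4 Gy day 7 replicate 2 (range -1.32 to -0.97). SLC6A19, an amino acid transporter of the brush border, fell by 1.08 (adjusted p = 0.0185), called in 5 of 8 and lost without 7.4 Gy day 4 replicate 3 or 7.4 Gy day 7 replicate 1 or 4 (range -1.22 to -0.94). The mean of 6 macrophage markers relative to the control mean ran from 0.39 to 0.94 on day 4 and from -0.27 to 0.15 on day 7 after 7.4 Gy, and that of 7 endothelial markers from 0.29 to 0.69 and from -0.22 to 0.04, with no overlap. The mean of 6 T cell markers did not overlap either, from -0.44 to -0.07 on day 4 and from -1.05 to -0.54 on day 7. The mean of the 17 enterocyte markers overlapped, from -0.70 to 0.14 and from -0.64 to -0.05. The part of these markers in the FABP1 rise was not tested. Across all genes 1.05% were altered in that comparison, and FABP1 was the 1 member altered.

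After 6.7 Gy the day 7 signals of FABP1 were 6.29, 6.02, 6.52 and 5.18, with a mean of 6.0 ± 0.58 (SD, n = 4), and they overlapped those of day 4. The difference between these days was 0.49 (95% interval -0.09 to 1.08, adjusted p = 0.342 in limma). On day 12 the signals were 6.76 and 6.02 after 6.7 Gy and 5.77 and 5.90 after 7.4 Gy. Both day 12 animals of the higher dose lay just below the lowest control, and both of the lower dose lay within the control range. Against the controls the differences were -0.43 and -0.15 on day 7 and -0.04 and -0.60 on day 12, for 6.7 Gy and 7.4 Gy in that order, with adjusted p from 0.706 to 0.982 in limma. Ordered from high to low by mean, the groups ran from the controls through 6.7 Gy day 12, 7.4 Gy day 7, 6.7 Gy day 7, 7.4 Gy day 12 and 6.7 Gy day 4 to 7.4 Gy day 4. The largest step between neighbours in that order was 0.32, less than the pooled SD within groups of 0.42, although the means spanned 1.22. A further probe that the array's annotation describes as FABP1, without giving it the symbol, was much dimmer, with control log2 signals of -1.82, -1.81, -1.64 and -2.32. It differed from the controls by -0.40 on day 4 after 6.7 Gy (adjusted p = 0.298) and by -0.57 after 7.4 Gy (adjusted p = 0.144), the same direction as the FABP1 probe, and was not called altered.

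FABP2, the intestinal-type fatty acid binding protein, was dim on this array. Its probe was well above background on 10 of 24 arrays, and it entered the test only through the 7.4 Gy day 7 group, in which all 4 animals passed. Log2 signals were -9.22, -5.67, -8.72 and -9.21 in the controls and -4.99, -5.70, -4.01 and -6.18 on day 7 after 7.4 Gy. The second of the controls stood apart from the other 3 and lay within the irradiated range. Because 3 of the 4 controls were not well above background, no difference from the controls is given for FABP2, and it was not called altered in any comparison. Neither animal of 6.7 Gy day 12 was well above background. Most values of this probe therefore lay near background.

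APOB is the scaffold protein of the chylomicron, of which each particle carries a single copy. Its log2 signals were 5.59, 5.16, 4.95 and 4.16 in the controls, 6.05, 5.50, 5.58 and 2.57 on day 4 after 6.7 Gy, and 4.91, 5.55, 4.65 and 5.98 on day 4 after 7.4 Gy. On day 7 they were 4.46, 4.55, 4.59 and 4.82 after 6.7 Gy and 4.46, 4.25, 5.36 and 3.95 after 7.4 Gy. On day 12 they were 5.10 and 4.76 after 6.7 Gy and 5.16 and 3.76 after 7.4 Gy. Each irradiated group overlapped the controls, and 1 animal of 6.7 Gy day 4 lay far below its group. The differences from the controls ran from -0.50 to 0.31, with 95% intervals between -1.91 and 1.46 and adjusted p from 0.75 to 0.992 in limma. By mean the groups ran from 7.4 Gy day 4 through the controls, 6.7 Gy day 12, 6.7 Gy day 4, 6.7 Gy day 7 and 7.4 Gy day 7 to 7.4 Gy day 12. The place of 6.7 Gy day 4 rests on its lowest animal, without which its difference from the controls was 0.74 instead of -0.04. A dimmer second APOB probe gave differences from -1.60 to 0.07 and was not called altered.

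APOC3 sits on the particle surface and slows the clearance of triglyceride from blood. Its log2 signals were 6.31, 6.15, 5.09 and 5.06 in the controls, 6.11, 5.72, 6.06 and 2.36 on day 4 after 6.7 Gy, and 5.81, 5.69, 5.04 and 5.41 on day 4 after 7.4 Gy. On day 7 they were 5.44, 5.53, 6.07 and 5.39 after 6.7 Gy and 5.81, 4.59, 5.76 and 4.89 after 7.4 Gy. On day 12 they were 6.43 and 6.47 after 6.7 Gy and 6.14 and 5.02 after 7.4 Gy. The 2 animals of 6.7 Gy day 12 lay above all controls, and the lowest animal was again the fourth of 6.7 Gy day 4. The differences from the controls ran from -0.59 to 0.80 (95% intervals between -1.82 and 2.30), with adjusted p from 0.550 to 0.993 in limma. In the RefSeq gene table used here, APOC3 lies on chromosome 14 between APOA4 and APOA1, with APOA5 next to them. APOA1 and APOA4 encode the main apolipoproteins that the gut adds to its particles. A probe whose description names a gene like APOA4 was well above background on 2 of 24 arrays and was not tested.

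MTTP, the transfer protein that loads triglyceride onto APOB, and DGAT1, an enzyme that makes triglyceride from diacylglycerol, were not altered in any group. The log2 signals of MTTP were 4.45, 3.83, 3.76 and 2.67 in the controls, 4.28, 3.90, 4.06 and 3.01 on day 4 after 6.7 Gy, and 3.14, 3.97, 3.50 and 4.13 on day 4 after 7.4 Gy. On day 7 they were 4.31, 3.49, 4.30 and 3.95 after 6.7 Gy and 3.39, 3.83, 4.18 and 3.89 after 7.4 Gy, and on day 12 they were 4.00 and 3.97 and then 3.95 and 3.88. Every irradiated animal lay within the control range, and the differences from the controls ran from 0.01 to 0.34 (95% intervals between -0.67 and 1.13, adjusted p from 0.818 to 0.994 in limma). The second MTTP probe differed by 0.11 to 0.49.

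For DGAT1 the log2 signals were 4.36, 4.02, 4.21 and 3.60 in the controls, 4.33, 4.36, 4.06 and 2.93 on day 4 after 6.7 Gy, and 3.34, 4.46, 4.02 and 4.47 on day 4 after 7.4 Gy. On day 7 they were 3.83, 3.50, 4.03 and 4.01 after 6.7 Gy and 4.05, 3.90, 3.77 and 3.62 after 7.4 Gy, and on day 12 they were 4.22 and 3.76 and then 4.28 and 3.77. Each irradiated group overlapped the controls. The differences ran from -0.21 to 0.02, with 95% intervals between -0.81 and 0.70, the narrowest span of these genes, and adjusted p from 0.780 to 0.994 in limma. By mean the groups ran from 7.4 Gy day 4 at 4.07 to 7.4 Gy day 7 at 3.83, a range of 0.24 against a pooled SD of 0.42. For MTTP the group means ranged over 0.34 against a pooled SD of 0.48, from 6.7 Gy day 7 at 4.01 to the controls at 3.68.

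CD36 binds long-chain fatty acids at the cell surface and is also made by endothelial cells and macrophages. Its log2 signals were -2.30, -2.30, -2.04 and -2.60 in the controls, -2.15, -0.85, -1.95 and -2.45 on day 4 after 6.7 Gy, and -1.47, -1.73, -2.16 and -1.91 on day 4 after 7.4 Gy. On day 7 they were -1.67, -2.45, -2.88 and -2.74 after 6.7 Gy and -2.39, -2.24, -1.87 and -2.19 after 7.4 Gy, and on day 12 they were -2.36 and -2.27 and then -2.41 and -2.90. Each irradiated group overlapped the controls, and the highest signal was that of 1 animal of 6.7 Gy day 4. The differences from the controls were 0.46 (adjusted p = 0.330) and 0.49 (adjusted p = 0.307) on day 4, for 6.7 Gy and 7.4 Gy, and ran from -0.34 to 0.14 later. Both animals of 7.4 Gy day 12 lay below all 4 of day 4, with a difference of -0.84 that did not pass the test (95% interval -1.56 to -0.11, adjusted p = 0.183 in limma).

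NPC1L1 is the brush-border transporter through which cholesterol and plant sterols enter. Its brightest probe gave -0.20, -0.28, -0.64 and -0.03 in the controls, 0.45, -0.01, -0.16 and -0.69 on day 4 after 6.7 Gy, and 0.11, 0.43, -0.32 and 0.27 on day 4 after 7.4 Gy. On day 7 it gave 0.23, -0.12, -0.41 and 0.36 after 6.7 Gy and -0.52, -0.17, 0.70 and -0.61 after 7.4 Gy, and on day 12 it gave 0.21 and 0.04 and then -0.46 and -0.35. Both animals of 6.7 Gy day 12 lay above all controls, and the other groups overlapped them. The differences ran from -0.12 to 0.42, with adjusted p from 0.367 to 0.971 in limma. The second probe, well above background on all 24 arrays, gave larger and more scattered differences, from -0.30 to 2.45, none called altered. It was 1.97 higher on day 4 after 7.4 Gy (adjusted p = 0.198), where the brightest probe was 0.41 higher. The third probe was well above background on 11 of 24 arrays.

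**Figure D2:**
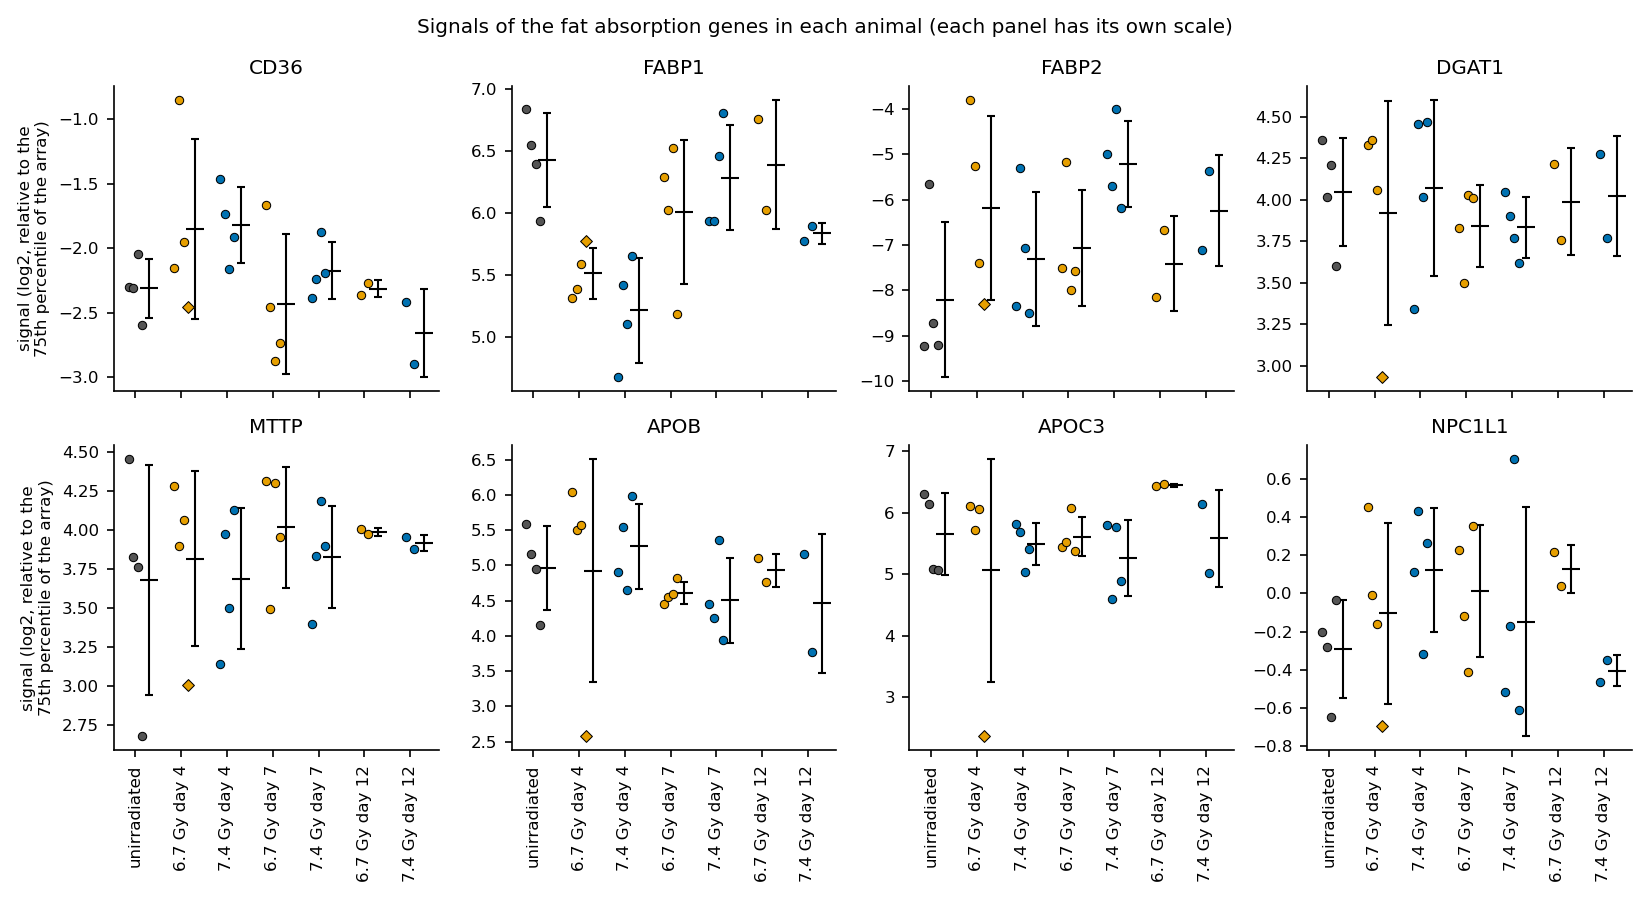
Log2 signal relative to the array's 75th percentile (vertical axes) of the 8 genes, 1 panel per gene, in the 7 groups (horizontal axis), with 1 point per animal and bars for the mean ± SD. The diamond is 6.7 Gy day 4 replicate 4, which is the lowest of all 24 animals for APOB, APOC3, DGAT1 and NPC1L1, but not for FABP1.

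For each of the 7 genes other than FABP2, the 6 steps between neighbouring group means were all smaller than the pooled SD within groups. Small steps do not show that groups were alike, since they also held for FABP1, whose group means spanned 1.22. The pooled SD was 0.39 for NPC1L1, 0.42 for FABP1, DGAT1 and CD36, 0.48 for MTTP, 0.84 for APOB and 0.89 for APOC3. In the remaining comparisons with the controls 0 of the 8 genes were altered, beside 0.35% of all genes on day 7 after 6.7 Gy, 0.735% on day 7 after 7.4 Gy, 0.161% on day 12 after 6.7 Gy and 0.042% on day 12 after 7.4 Gy. Leaving aside the dim FABP2, 0 members reached an unadjusted p under 0.05 there in limma by their brightest probes. The second NPC1L1 probe was 2.45 higher on day 12 after 6.7 Gy (unadjusted p = 0.0416, adjusted p = 0.536 in limma). Without FABP2, the median of the other 7 members' differences from the controls ran from -0.15 to 0.02 over the 6 irradiated groups, and the median over all genes ran from -0.07 to 0.05.

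The doses were compared directly on each day, and 0 members were altered. By their brightest probes, 0 reached an unadjusted p under 0.05 in limma. The second NPC1L1 probe was at -2.75 for 7.4 Gy minus 6.7 Gy on day 12 (unadjusted p = 0.0468, adjusted p = 0.795 in limma). Of all genes, 0% were altered between the doses on day 4, 0% on day 7 and 0.007% on day 12. The difference of 7.4 Gy minus 6.7 Gy was also taken by brightest probe for the genes other than FABP1 and FABP2. It ran from -0.13 to 0.42 on day 4, from -0.35 to 0.26 on day 7 and from -0.87 to 0.03 on day 12. Between days, 0 members were altered in the other 5 comparisons. The share of all genes altered after 6.7 Gy was 0.455% from day 4 to day 7, 0.042% from day 7 to day 12 and 2.65% from day 4 to day 12, and after 7.4 Gy it was 0.007% from day 7 to day 12 and 2.11% from day 4 to day 12. From day 4 to day 12, 1 member reached an unadjusted p under 0.05 after each dose. After 6.7 Gy this was FABP1, at 0.88 (95% interval 0.16 to 1.59, adjusted p = 0.108 in limma), and after 7.4 Gy it was CD36.

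**Figure D3:**
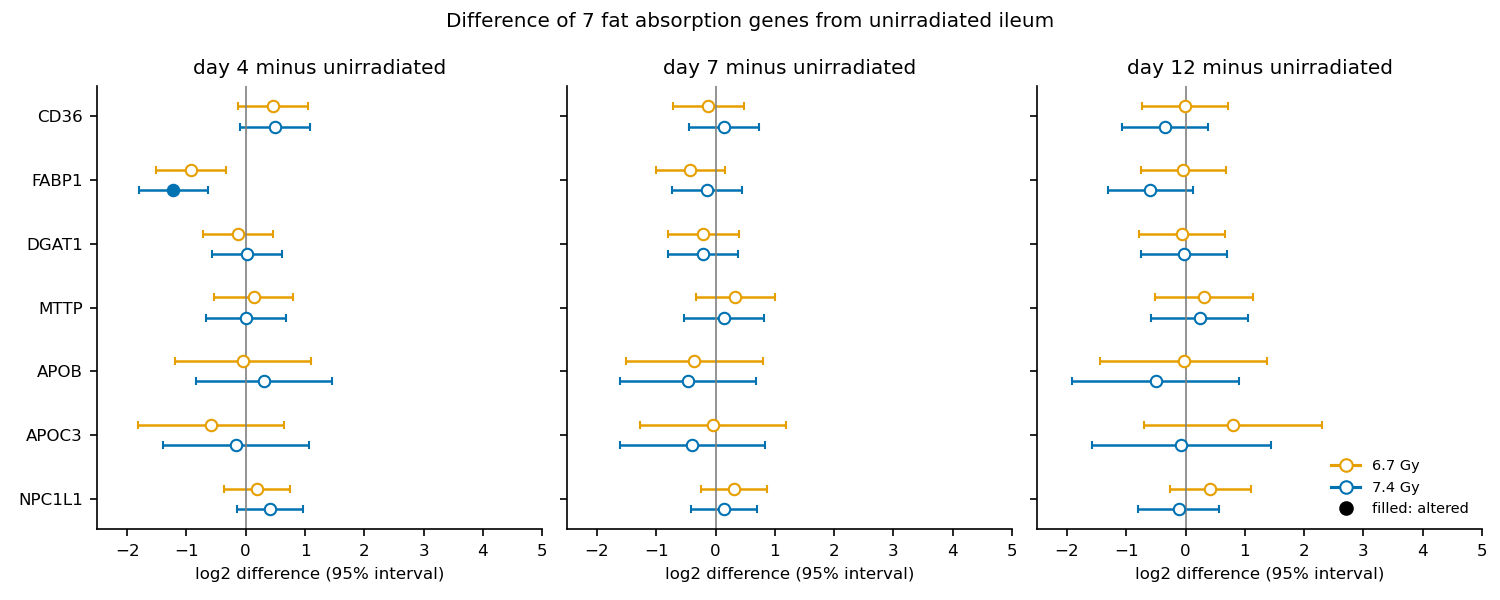
Log2 difference from the unirradiated controls (horizontal axis) of 7 genes in the 6 irradiated groups, as points with 95% intervals from limma. The 1 filled point is the 1 altered value, FABP1 on day 4 after 7.4 Gy at -1.22, and FABP2 is left out because most of its control values lay near background.

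The fourth animal of 6.7 Gy day 4 stood apart. Its APOB signal was 2.57 where the lowest of the other 23 animals had 3.76, and its APOC3 signal was 2.36 where the lowest of the others had 4.59. Its DGAT1 signal was 2.93 beside 3.34, and its NPC1L1 signal was -0.69 beside -0.64. FABP1 was not low in it, with 5.77, the ninth lowest of the 24. The mean of the 17 enterocyte markers without a lipid role, relative to the control mean, was -1.87 in this animal and between -0.70 and 0.59 in the other 23. Its goblet cell mean was -1.19 (others -1.05 to 0.19), its Paneth cell mean was 1.60 (others -0.47 to 0.82) and its proliferation mean was 1.34 (others -0.31 to 0.79). Its median correlation with its group over all probes was 0.964, and that of every other array was at least 0.976. Without this animal the 6.7 Gy day 4 differences became 0.74 for APOB (adjusted p = 0.313), 0.31 for APOC3 (adjusted p = 0.657), -1.0 for FABP1 (adjusted p = 0.105) and 0.20 for DGAT1. APOB, APOC3 and DGAT1 changed sign, from -0.04, -0.59 and -0.13 with all 4 animals, and no member was called altered by limma with it or without it.

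Over the 24 animals the members ran with the enterocyte markers to different degrees. Pearson's r with the mean of the 17 markers was 0.88 for APOC3, 0.77 for APOB, 0.77 for DGAT1 and 0.68 for MTTP, and without the fourth animal of 6.7 Gy day 4 it was 0.70, 0.59, 0.62 and 0.63. For FABP1 r was 0.28, for NPC1L1 0.39 and for CD36 0.03, and without that animal it was 0.38, 0.22 and -0.11. Between members, r was 0.80 for APOB with DGAT1, 0.76 for APOB with APOC3 and 0.64 for MTTP with DGAT1, and -0.13 for FABP1 with APOB. Without the fourth animal of 6.7 Gy day 4 these were 0.69, 0.56, 0.54 and -0.21. For DGAT1 with APOC3, r went from 0.61 to 0.30 without it. These correlations describe arrays that share a scaling and a tissue makeup, and they mix animals of 7 groups.

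**Figure D4:**
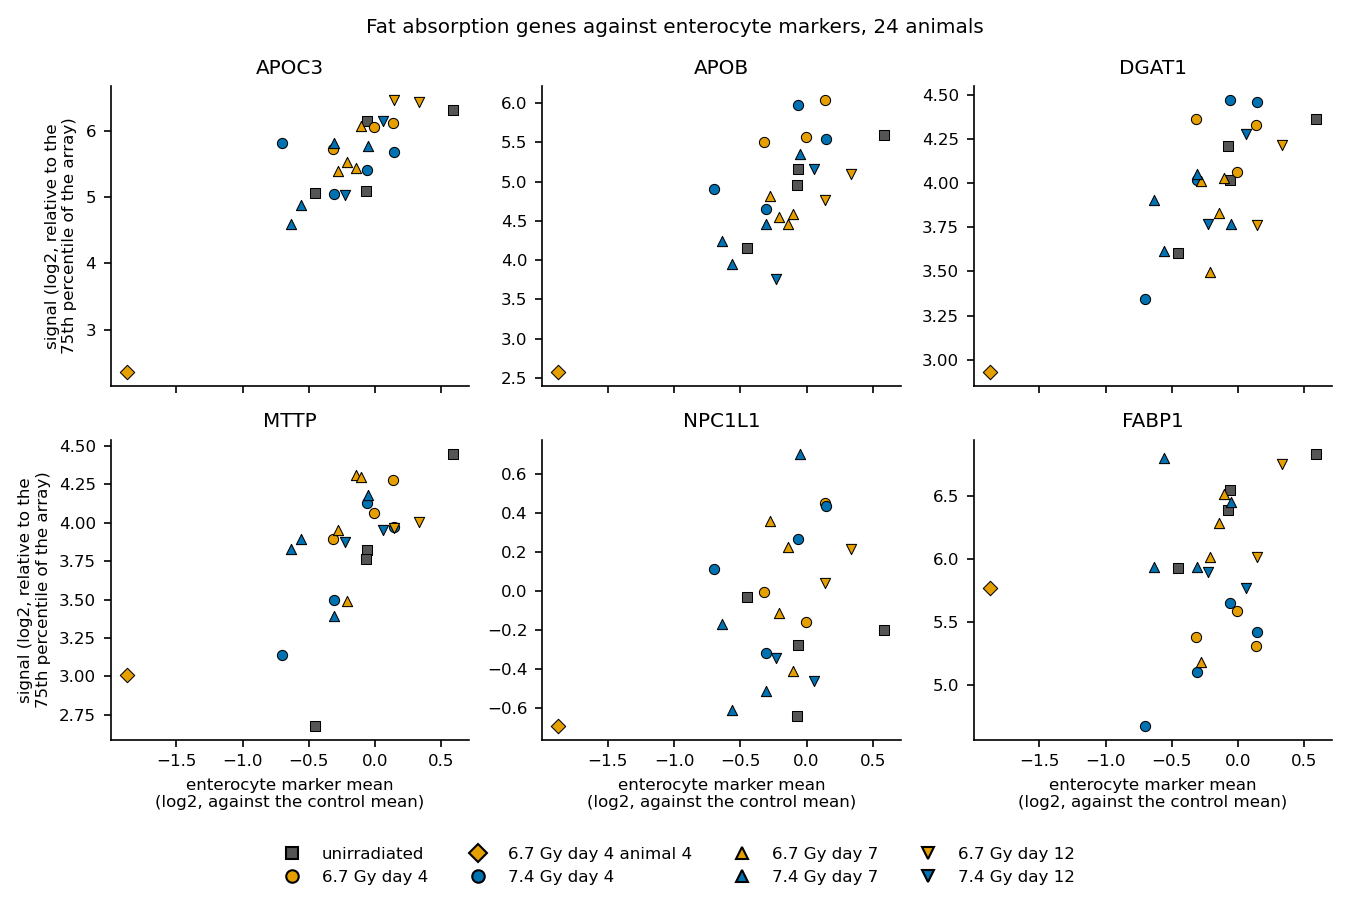
Log2 signal of 6 members (vertical axes, 1 panel per gene) against the mean of 17 enterocyte markers relative to the control mean (horizontal axis), with 1 point per animal. APOC3, APOB, DGAT1 and MTTP rise with the marker mean, with r from 0.68 to 0.88, and the diamond at -1.87 is the fourth animal of 6.7 Gy day 4.

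For each member but FABP2 the 3 genes with the most similar signal over the 24 animals were found by Pearson's r. FABP1 was closest to UAP1, an enzyme of amino sugar synthesis (r = 0.84), ARFGEF1, an exchange factor for the small GTPase ARF (r = 0.83), and LOC706973, listed in RefSeq as LLGL2 (r = 0.82). APOB was closest to CDHR2, a protocadherin of the brush border and 1 of the 17 enterocyte markers (r = 0.90), FAM46A (r = 0.90) and NLRP7 (r = 0.89). APOC3 was closest to LOC721989, listed as CATSPERH (r = 0.98), TREH, the brush-border enzyme that splits trehalose and likewise a marker (r = 0.88), and EPS8L3 (r = 0.88). DGAT1 was closest to LOC719848, listed as PRAP1 (r = 0.86), CDHR5, a partner of CDHR2 in the brush border and likewise a marker (r = 0.82), and LOC705656, listed as C1H1orf115 (r = 0.82). MTTP was closest to DPP4, a brush-border peptidase and 1 of the 17 markers (r = 0.83), LOC709194 (r = 0.79) and the zinc exporter SLC30A1 (r = 0.79). CD36 was closest to ESAM, an adhesion molecule of endothelial cells (r = 0.84), EGFL7, which endothelial cells secrete (r = 0.83), and OLFML3 (r = 0.81). NPC1L1 had LOC716004, listed as SHBG (r = 0.79), LOC100425340, listed as ZNF383 (r = 0.69), and ZBTB37 (r = 0.69). None are given for FABP2, whose values lay mostly near background.

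Around the members, 6 lists held 103 further genes of the same pathway, of which 69 were tested. On day 4 after 7.4 Gy 2 of the 69 rose and 5 fell, on day 4 after 6.7 Gy 0 rose and 1 fell, and on day 7 after 7.4 Gy 0 rose and 1 fell. Of all genes, 1.88% were higher and 0.827% lower on day 4 after 7.4 Gy, 0.7% and 0.455% on day 4 after 6.7 Gy, and 0.168% and 0.567% on day 7 after 7.4 Gy. In the other 3 groups 0 were altered in limma. The median difference of the 69 was -0.19 and -0.21 on day 4, for 6.7 Gy and 7.4 Gy, beside -0.07 and -0.05 for all genes. DGAT2 and CREB3L3 had no probe under their symbols.

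MOGAT2, which makes the diacylglycerol that the DGAT enzymes use, fell on day 4 after both doses. Its log2 signals were 1.52, 1.31, 1.31 and 1.39 in the controls, 0.88, 0.59, 0.32 and -0.27 on day 4 after 6.7 Gy, and -0.71, 0.54, 0.56 and 0.59 on day 4 after 7.4 Gy. None of the 8 irradiated animals overlapped the controls. It fell by 1.0 after 6.7 Gy (SE 0.25, adjusted p = 0.0384 in limma) and by 1.13 after 7.4 Gy (adjusted p = 0.0121). The call after 6.7 Gy held in 2 of 8 fits that left out 1 animal, being lost without control replicate 1, 2, 3 or 4 and without 6.7 Gy day 4 replicate 3 or 4, and the call after 7.4 Gy was lost without 7.4 Gy day 4 replicate 1, at -0.82. On day 7 its signals were 1.26, 1.25, 1.30 and 1.02 after 6.7 Gy and 1.35, 1.06, 1.24 and 1.06 after 7.4 Gy, and on day 12 they were 1.82 and 1.24 and then 1.91 and 1.64. From day 4 to day 12 it rose by 1.15 after 6.7 Gy (adjusted p = 0.0324) and by 1.53 after 7.4 Gy (adjusted p = 0.0112). The rise after 6.7 Gy was called in 2 of 6 fits that left out 1 animal, being lost without day 4 replicate 3 or 4 and without either day 12 animal (range 0.86 to 1.44), and the rise after 7.4 Gy was called in 4 of 6, being lost without either day 12 animal (range 1.21 to 1.66). The other 8 resynthesis genes tested were not altered against the controls.

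Of 17 transcription regulators, 3 fell and 1 rose on day 4 after 7.4 Gy, where 2.7% of all genes were altered and 0.827% were lower. KLF5, a factor of crypt epithelial growth, had control log2 signals of 3.70, 3.81, 3.39 and 3.48 and gave 2.24, 2.37, 2.56 and 2.66 on day 4 after 7.4 Gy, with no overlap. It fell by 1.14 there (adjusted p = 0.000433 in limma), a call that held in all 8 fits that left out 1 animal, and it differed by -0.76 after 6.7 Gy (adjusted p = 0.0160), which is less than 2.0-fold. NR1H4, the bile acid receptor FXR, fell by 1.52 (adjusted p = 0.0340) and its target NR0B2 rose by 1.70 (adjusted p = 0.0396). The NR1H4 call held in 2 of 8 such fits, those without control replicate 4 or 7.4 Gy day 4 replicate 2, and the lost fits gave -1.61 to -1.10. The NR0B2 call held in 1 of 8, that without 7.4 Gy day 4 replicate 2, and the lost fits gave 1.37 to 1.84. HNF4A, which drives many enterocyte lipid genes, was at -0.43 and -0.37 on day 4 (adjusted p = 0.238 and 0.310), and PPARA, the fatty acid receptor, was at -0.22 and -0.64 (adjusted p = 0.511 and 0.0618). On day 7 after 7.4 Gy PRDM1, a transcription repressor and also a regulator of plasma cells, fell by 1.06 (adjusted p = 0.0262 in limma). That call held in 3 of 8 fits that left out 1 animal, those without control replicate 2 or 3 or 7.4 Gy day 7 replicate 3, over a range of -1.20 to -0.83. The mean of 7 plasma cell markers relative to the control mean ran from -2.25 to -1.07 in that group and from -0.68 to 1.0 in the controls, and its part in the PRDM1 difference was not tested. From day 4 to day 7 after 7.4 Gy, KLF5 rose by 1.15 (adjusted p = 0.00105) and PRDM1 fell by 1.48 (adjusted p = 0.00233), each called in all 8 fits that left out 1 animal.

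Of the 12 genes of chylomicron assembly and lipid droplets, A1CF, the partner of APOBEC1 in editing the APOB transcript, fell by 1.29 on day 4 after 7.4 Gy (adjusted p = 0.0426 in limma), although the groups overlapped and the call held in 3 of 8 fits that left out 1 animal, those without control replicate 4 or 7.4 Gy day 4 replicate 2 or 4, with -1.29 to -1.01 in the lost fits. APOBEC1 itself was at -0.12 and -0.36 on day 4 (adjusted p = 0.844 and 0.579). SAR1B, which buds the chylomicron carriers from the endoplasmic reticulum, was at -0.47 (adjusted p = 0.213) and -0.75 (adjusted p = 0.0494), the latter below 2.0-fold. Of 10 other apolipoproteins 1 was altered. APOE, which directs the uptake of remnant particles and is also made by macrophages, had control log2 signals of 0.50, 0.38, 0.70 and 0.50 and gave 1.74, 1.35, 1.76 and 2.02 on day 4 after 7.4 Gy. It rose by 1.2 (adjusted p = 0.00194) with no overlap, a call that held in all 8 fits that left out 1 animal. None of the 12 uptake and trafficking genes or the 9 sterol genes was altered against the controls. FABP5, the epidermal-type fatty acid binding protein, had log2 signals of 1.36, 0.96, 0.90 and 1.48 in the controls. On day 4 after 7.4 Gy its signals were 2.24, 1.61, 2.75 and 1.95, with no overlap. Its difference of 0.96 (adjusted p = 0.0156 in limma) was a 1.95-fold higher signal, just under 2.0-fold, and with 1 animal left out it ran from 0.76 to 1.14 and was called in 4 of 8 fits.

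**Figure D5:**
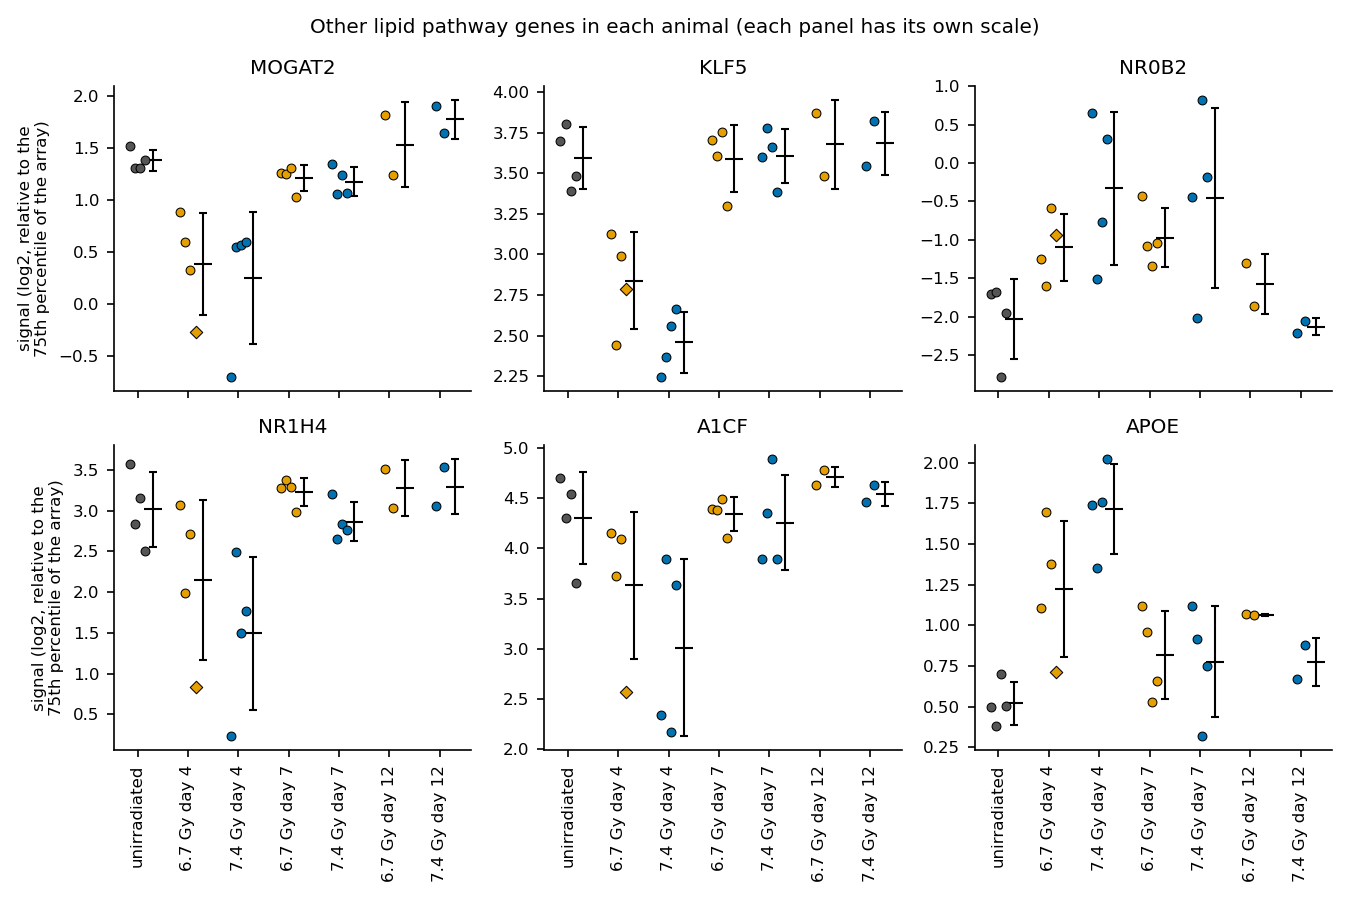
Log2 signal relative to the array's 75th percentile (vertical axes) of pathway genes altered against the controls, in the 7 groups (horizontal axis), with 1 point per animal and bars for the mean ± SD. On day 4 after 7.4 Gy MOGAT2 and KLF5 lie below the range of the 4 controls and APOE lies above it.

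Markers of enterocytes and of other cells also moved on day 4, when 0.7% of all genes were higher and 0.455% lower after 6.7 Gy, and 1.88% higher and 0.827% lower after 7.4 Gy. Among 17 enterocyte markers VIL1 fell by 1.32 after 6.7 Gy (adjusted p = 0.00106 in limma) and by 1.27 after 7.4 Gy (adjusted p = 0.000847) on day 4, KRT20 fell after 6.7 Gy and LCT, the lactase gene, rose by 1.94 after 7.4 Gy (adjusted p = 0.0241). With 1 animal left out the VIL1 calls held in all 8 fits. KRT20 held in 5 of 8, being lost without control replicate 1 or 6.7 Gy day 4 replicate 2 or 4 (range -1.21 to -0.85), and LCT held in 4 of 8, being lost without control replicate 2 or 3 or 7.4 Gy day 4 replicate 2 or 4 (range 1.52 to 2.18). The median of the 17 was -0.57 and -0.32. Of 4 goblet cell markers AGR2 and CLCA1 fell after both doses, with list medians of -0.86 and -0.67. Of 6 fibroblast markers DCN, LUM and COL3A1 rose on day 4 after 7.4 Gy, and the mean of the 6 relative to the control mean ran from 0.60 to 1.38 in those animals and from -0.36 to 0.15 in the controls. After 6.7 Gy it ran from 0.19 to 1.1, also above every control. Among 7 endothelial markers VWF rose and among 6 macrophage markers CD14 rose in the same group. Of 3 platelet and erythroid markers HBB, a haemoglobin chain, fell by 6.11 after 6.7 Gy and fell by 5.88 after 7.4 Gy, and the mean of the 3 ran from -2.55 to -2.19 and from -2.70 to -1.47 after these doses, with the controls between -0.69 and 0.87. Of 3 B cell markers CD79B fell after both doses, and the mean ran from -1.95 to -0.81 and from -1.72 to -1.06, with the controls between -0.68 and 0.96. None of the 7 plasma cell markers was altered on day 4, where their mean ran from -1.04 to -0.75 after 6.7 Gy and from -1.46 to -0.45 after 7.4 Gy. Of 7 enteroendocrine markers CHGB rose after 7.4 Gy. None of the proliferation, Paneth cell, smooth muscle, T cell, adipocyte or pan-epithelial markers tested was altered on day 4. The part of these markers in the FABP1, MOGAT2 and APOE differences was not tested.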

How the data were processed

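The arrays were scanned and read by the authors with Feature Extraction 11.0.1.1, and the deposited scanner files hold a processed signal intensity per spot, with background subtracted, and flags for spots well above background or saturated. A deposited table holds log2 values of the same arrays, which the authors scaled to the 75th percentile in GeneSpring GX and centred per probe on the median. Its symbols named the probes, and its values entered as an alternative. The jejunum and the colon are not part of what was analysed here.

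The log2 of the intensity minus that of the array's 75th percentile was computed, spots of a probe were averaged, and probes well above background in every animal of at least 1 group were kept (36110 of 43603, with all 12 member probes). All 24 arrays in 7 groups entered 1 limma 3.58.1 fit in R 4.3.3, with no block or covariate, and 15 comparisons with Benjamini-Hochberg adjustment over all probes tested. A gene was altered at an adjusted p under 0.05 and a change of at least 2.0-fold, by its brightest probe. The members and the 21 gene lists were chosen with earlier results of these data known. Members were all named, as were the 3 genes most alike each (not for FABP2, near background), at most 4 altered genes of each list, and a few regulators and enzymes whatever their values. The scripts were tested on simulated data. The labels number the animals, but 40 pairs with the same number correlated between -0.26 and 0.23 (median 0.02), so the numbers were not treated as pairs. The labels do not say more of the animals' origin, so that p-values measure the spread between these animals. Alternatives were another background correction, scaling and filter, slide as a block, array position, fewer arrays, the methods' t-test and leaving out each animal. The values of 1 altered gene of the regulator list are not reported here.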

Additional observations from a re-analysis of the deposited data

Results flagged for a closer look

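The FABP1 signal differed between days 4 and 7 after 7.4 Gy by 1.07 on the log2 scale, tested directly with limma. The signals of APOB (2.57) and APOC3 (2.36) in 6.7 Gy day 4 replicate 4 lay far from the other 3 animals of that group. The FABP2 signal of control replicate 2, at -5.67, lay far from the other 3 controls, which were not well above background. The check covered 40 sets, each of 1 gene in 1 of the 5 groups of 4 animals, and 3 sets held such an animal. Chance alone flags about 1 in 20 independent sets. These sets share animals, and APOB and APOC3 flagged the same animal, so the count cannot be set against that rate. The causes of the flagged values were not tested.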

How the results depend on the processing

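The fall of FABP1 on day 4 after 7.4 Gy (-1.22, adjusted p 0.0156 in limma) was no longer called with array position as a covariate (-1.55), by the methods' t-test after adjustment (-1.22), or on slides 1 to 4 alone (-1.38, an alternative chosen after seeing the data), and the count of altered members then went from 1 to 0. Leaving out 1 animal gave -1.38 to -1.04, and the count 0 to 1. On day 4 after 6.7 Gy such fits gave -1.08 to -0.78, with 0 members altered.

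The rise of FABP1 from day 4 to day 7 after 7.4 Gy (1.07, adjusted p 0.0384) was no longer called after quantile normalization (0.95), without the filter on dim probes (1.07), with slide as a fixed block (0.81), with only the groups compared (1.07), or by the adjusted t-test (1.07), nor with the replicate block (1.07, adjusted p 0.0554), in which case 0 members were altered. The replicate block kept the day 4 fall (-1.22, adjusted p 0.0252), and it is a check only, since the numbers do not pair the animals. Leaving out 1 animal gave 0.89 to 1.22. The unadjusted methods' t-test called 1 member, FABP2, on day 7 after 7.4 Gy, where the main count was 0, but that probe passed the filter only through this group and lay near background in 3 of 4 controls, so that the call carries no weight. The cause of these changes was not tested.

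No member other than FABP1 was called with an adjusted p under any alternative run, and 0 dose comparisons called a member. Of 1881 member values under alternatives other than leaving out 1 animal, 61 lay on the other side of 0 with no call in either setting, and 0 reversed with a call. With 1 animal left out, 89 of 832 lay on the other side of 0, called in neither. Over all genes, the count altered on day 4 after 7.4 Gy was 386, and 69 by the adjusted t-test, 77 with array position, 180 on slides 1 to 4, 211 with only the groups compared, 244 after normexp and 1085 by the adjusted p alone. With 2 animals per dose, day 12 gave wide intervals. The planned promoter motif search was not run.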
